A study of Mus musculus with 6 samples.

Results

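The Wnt ligands and R-spondins of the cortical hem were followed in the embryonic mouse forebrain, together with the hem transcription factor Lmx1a and the paralogues Wnt7a and Wnt7b. The 10 genes were taken by symbol from a list of 4 hem Wnts (Wnt3a, Wnt2b, Wnt5a and Wnt8b), 3 R-spondins (Rspo1, Rspo2 and Rspo3), Lmx1a, Wnt7a and Wnt7b. All 10 had a row among the 34866 rows of the count table, and all 10 were among the 15216 genes with enough counts to be tested. Total RNA of the forebrain was sequenced at E14.5 in 3 libraries labelled Mut, with the Sap130 genotype f/- and Emx1-cre, and 3 libraries labelled Cont, with the Sap130 genotype f/+ and Emx1-cre. Both groups thus carried Emx1-cre and a floxed Sap130 allele, and they differed in the other allele, null in Mut and wild type in Cont. Emx1-cre recombines in the lineage of the dorsal telencephalon, so other regions in the same tissue sample, such as the ganglionic eminences and any diencephalon, lie largely outside it. The Sap130 protein belongs to the Sin3 co-repressor, which acts through histone deacetylases. The series calls the controls littermates without saying which embryos shared a litter. Titles begin with SPF-539 (Mut replicate 1 and Cont replicate 1) or SPF-552 (replicates 2 and 3 of each group), and what these numbers stand for is not given.

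The cortical hem is a strip of neuroepithelium at the medial edge of the dorsal telencephalon, between the hippocampal primordium and the choroid plexus, and it secretes Wnt and BMP ligands that organise the hippocampus. Wnt ligands bind Frizzled receptors with an Lrp5 or Lrp6 co-receptor and stabilise beta-catenin, which acts on target genes with TCF/LEF factors. R-spondins bind Lgr4, Lgr5 or Lgr6 and draw off the E3 ligases Znrf3 and Rnf43, which otherwise remove Frizzled from the cell surface. Wnt7a and Wnt7b are made more widely, in cortical progenitors and, for Wnt7b, also in cortical neurons, and they drive the growth of brain vessels through Reck and Adgra2 (Gpr124) on endothelium.

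Library totals lay between 20775583 and 25999874 estimated counts. Sap130, the targeted gene, was higher in the libraries labelled Mut, at 128.6 ± 7.85 CPM (counts relative to library size, scaled between libraries by TMM) against 84.0 ± 1.10 CPM in Cont (SD, n = 3 each), which goes against its label as the gene with a lost allele. The log2 fold change of Sap130 was 0.61 (standard error 0.076, adjusted p = 0.0116 in the quasi-likelihood test of edgeR). Gene-level counts include transcripts that lack the floxed part, and they cannot tell such transcripts from an exchange of labels. Directions below are those of the libraries as labelled, and an exchange would turn every one of them round. Markers of the cortex were present in every library, with 10 of them summing to 1763 to 1892 CPM in the libraries labelled Mut and 2170 to 2249 CPM in Cont. Of these 10 genes 3 fell at an adjusted p under 0.05 in the quasi-likelihood test of edgeR, adjusted after Benjamini and Hochberg over all 15216 genes, Neurod6 and Eomes among them, and none rose. In bulk tissue, fewer cells of a type and less RNA per cell cannot be told apart.

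By the same test none of the 10 genes passed an adjusted p of 0.05, where 0.138% of all genes did (0.0263% higher and 0.112% lower in Mut). Wnt8b and Wnt7b had an unadjusted p under 0.05, as did 9.6% of all genes, and these 2 were called by DESeq2, which called 1.41% of the genes it tested. The likelihood-ratio test of edgeR called none of the 10 and 0.986% of all genes. Values of the 2 groups did not overlap for Wnt8b and Wnt3a, higher in the libraries labelled Mut, and for Wnt7b, lower in them. Over all genes 8.17% lay wholly higher and 8.49% wholly lower.

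Wnt8b differed most in fold. The promoter windows of Wnt8b, of Wnt3a, the other hem Wnt without overlap, and of Wnt7a, a Wnt outside the hem group, are shown for their contrast in base composition. Each is the part of the 250 bases before the RefSeq start that lies outside annotated exons, read 5′ to 3′ on the gene's own strand from GRCm38.p6. Capitals mark matches on either strand to the letters CTTTGA or CTTTGT, cores of TCF/LEF sites, or to TAATTA, a homeodomain core.
Wnt8b: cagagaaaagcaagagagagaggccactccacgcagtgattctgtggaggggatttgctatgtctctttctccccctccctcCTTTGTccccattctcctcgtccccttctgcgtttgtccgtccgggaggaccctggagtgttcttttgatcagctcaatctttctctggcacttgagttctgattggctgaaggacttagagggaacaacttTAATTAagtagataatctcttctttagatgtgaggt
Wnt3a: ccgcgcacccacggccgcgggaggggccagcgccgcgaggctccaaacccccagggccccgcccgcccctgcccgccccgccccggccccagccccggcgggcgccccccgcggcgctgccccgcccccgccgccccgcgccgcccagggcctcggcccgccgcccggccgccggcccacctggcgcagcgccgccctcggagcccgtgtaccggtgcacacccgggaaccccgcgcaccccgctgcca
Wnt7a: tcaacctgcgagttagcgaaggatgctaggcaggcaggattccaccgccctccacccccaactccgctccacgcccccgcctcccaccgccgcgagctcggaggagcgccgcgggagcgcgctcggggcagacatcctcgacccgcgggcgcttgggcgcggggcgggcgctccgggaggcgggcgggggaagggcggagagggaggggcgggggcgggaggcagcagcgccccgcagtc

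These windows lie at chr19:44493222-44493471 on the plus strand for Wnt8b, chr11:59290753-59291001 on the minus strand for Wnt3a and chr6:91411364-91411603 on the minus strand for Wnt7a. RefSeq promoter entries matched 6 of the 10 genes, the others being Wnt2b, Rspo1 and Lmx1a, and Wnt5a, Wnt7b, Rspo2 and Rspo3 are not shown. G and C made up 48.4% of the full Wnt8b window, against a median of 52.4% over all 32851 windows of the same length. The Wnt3a window held 87.6% and the Wnt7a window 77.6%. Of the 6 windows, that of Wnt8b alone held a match, with 1 CTTTGT at 168 to 163 bases before the start and 1 TAATTA at 36 to 31 bases before it. CTTTGA was found in 13.8% of all windows, CTTTGT in 16.5% and TAATTA in 4.84%. Matches to the TCF/LEF cores are thus common, and those to the homeodomain core less so. All of these matches describe letters and not bound sites.

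Levels were first set in order per kilobase of exon, the scale on which genes can be compared. Wnt7b was highest, at 31.3 ± 2.43 CPM per kilobase in the libraries labelled Mut and 39.9 ± 3.26 in Cont (SD, n = 3 each). Wnt7a followed at 14.6 ± 1.50 in Mut and 14.2 ± 1.71 in Cont, and Rspo3 at 9.80 ± 1.13 in Mut and 10.5 ± 1.08 in Cont. The 3 genes at the top kept this order in every library. The highest hem Wnt in Cont was Wnt5a, at 4.15 ± 0.211 CPM per kilobase in Mut and 4.12 ± 0.348 in Cont. Wnt8b reached 3.97 ± 1.22 in Mut and 2.33 ± 0.336 in Cont, so that it lay below Wnt5a in every Cont library and above it in Mut replicate 3 only. Rspo1, Lmx1a, Rspo2 and Wnt2b came next in Cont, with means of 1.49 to 1.93 CPM per kilobase in Cont and library values that overlapped. Wnt3a was lowest of the 10 in every library, at 1.05 ± 0.166 in Mut and 0.789 ± 0.127 in Cont.

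**Figure D1:**
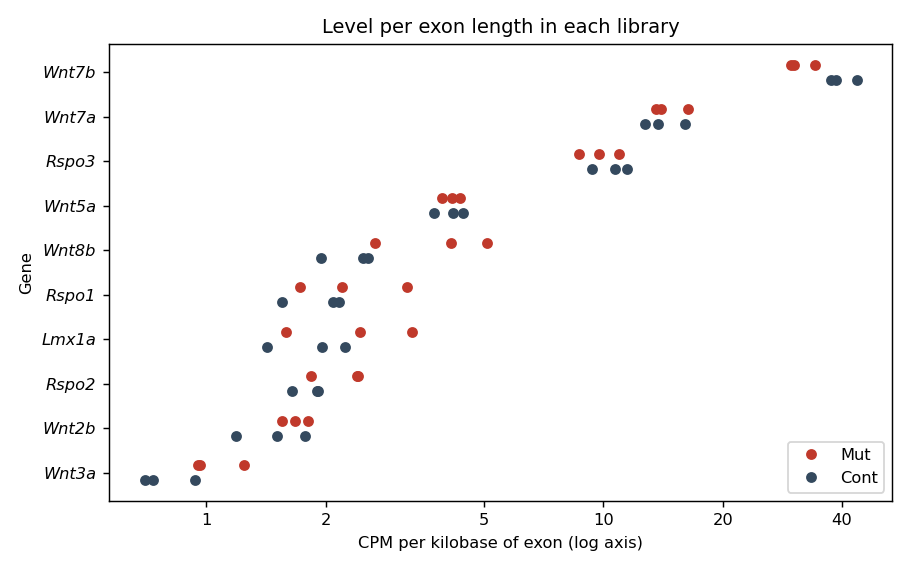
Level of each gene in CPM per kilobase of exon on a log axis, with 1 point per library (red, 3 Mut; dark blue, 3 Cont). Wnt7b, Wnt7a and Rspo3 stand above the other 7 genes in every library, and the points of Wnt2b, Rspo2, Lmx1a and Rspo1 overlap in Cont.

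Among the hem Wnts, Wnt8b (ENSMUSG00000036961, GRCm38 chromosome 19, 44493472 to 44514273, plus strand) marks the hem and the adjoining hippocampal neuroepithelium and is also made in parts of the diencephalon. Its level was 9.28, 14.4 and 17.7 CPM in Mut replicates 1 to 3, against 8.62, 8.91 and 6.76 CPM in Cont replicates 1 to 3. All 3 libraries labelled Mut lay above all 3 Cont libraries, but Mut replicate 1 exceeded the highest Cont library only slightly. The fold was 1.70, with an unadjusted 95% interval of 1.23 to 2.36, and the log2 fold change was 0.77 (standard error 0.21, adjusted p = 0.23 in the quasi-likelihood test of edgeR). Within SPF-539 the log2 ratio of Mut to Cont was 0.11 and within SPF-552 it was 1.03. Without Mut replicate 1 the log2 fold change was 0.99 and Wnt8b passed that test (adjusted p = 0.00418), as 2.14% of all genes did, and without Mut replicate 3 it was 0.55 (adjusted p = 0.469).

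Wnt3a, the ligand whose loss in mice removes the hippocampus, was the scarcest of the 10 genes, with 44 to 76 counts a library. It stood at 2.66, 2.63 and 3.44 CPM in Mut replicates 1 to 3, against 2.02, 1.93 and 2.58 CPM in Cont replicates 1 to 3. The groups did not overlap, but Mut replicates 1 and 2 lay just above Cont replicate 3. The fold was 1.33 (unadjusted 95% interval 0.912 to 1.95), the log2 fold change 0.42 with a standard error of 0.25, and the adjusted p 0.656 in the quasi-likelihood test of edgeR. The log2 ratio was alike in both title numbers, at 0.38 in SPF-539 and 0.42 in SPF-552.

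Wnt2b and Wnt5a, the other hem ligands, showed smaller differences with groups that overlapped. Wnt2b measured 7.01, 7.59 and 6.52 CPM in Mut replicates 1 to 3 and 7.47, 5.00 and 6.35 CPM in Cont replicates 1 to 3. Its log2 fold change was 0.16 (standard error 0.18), and it was 0.03 without Cont replicate 2, 0.10 without Mut replicate 2 and 0.31 without Cont replicate 1. Wnt5a, which signals mostly without beta-catenin, measured 30.7, 34.0 and 32.6 CPM in Mut replicates 1 to 3 and 29.2, 34.6 and 32.7 CPM in Cont replicates 1 to 3. The Wnt5a log2 fold change was 0.01 (standard error 0.10), so its 95% interval in fold ran from 0.865 to 1.18 and holds no change of the size fitted for Wnt8b. Wnt5a shares 358 exon bases with the antisense gene Gm2670, and the library kit marks no strand, so reads of the 2 cannot be told apart there.

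Lmx1a (ENSMUSG00000026686, chromosome 1, 167689237 to 167848741, plus strand), the LIM homeodomain factor that specifies the hem, is also made in the roof plate and in ventral midbrain progenitors. It measured 5.41, 11.2 and 8.28 CPM in Mut replicates 1 to 3 and 7.59, 6.63 and 4.83 CPM in Cont replicates 1 to 3. The groups overlapped, since Mut replicate 1 was lower than Cont replicates 1 and 2. The log2 fold change was 0.38 (standard error 0.25, adjusted p = 0.69 in the quasi-likelihood test of edgeR). It was 0.10 without Mut replicate 2, 0.21 without Cont replicate 3 and 0.61 without Mut replicate 1, so a single library moved it by more than 1.5 times.

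The R-spondins, which raise the response to Wnts at the receptor, gave no call in the quasi-likelihood test, and their directions differed. Rspo1 had 3.33, 4.25 and 6.20 CPM in Mut replicates 1 to 3 and 3.01, 4.04 and 4.18 CPM in Cont replicates 1 to 3. Mut replicate 3 was the highest and Mut replicate 2 lay just above Cont replicate 3, and the log2 fold change of 0.29 (standard error 0.25) was 0.01 without Mut replicate 3. Rspo2 had 9.36, 12.3 and 12.2 CPM in Mut replicates 1 to 3 and 9.74, 8.38 and 9.79 CPM in Cont replicates 1 to 3. Its log2 fold change was 0.28 (standard error 0.15), with Mut replicate 1 among the Cont values and the other Mut libraries above them. Rspo3, the most abundant of the 3 per length, had 26.8, 30.2 and 33.8 CPM in Mut replicates 1 to 3 and 28.9, 35.5 and 33.0 CPM in Cont replicates 1 to 3. The Rspo3 groups overlapped, with a log2 fold change of -0.10 (standard error 0.12) that was -0.02 without Mut replicate 1, -0.03 without Cont replicate 2, -0.18 without Cont replicate 1 and -0.19 without Mut replicate 3. Adjusted p-values were 0.768 for Rspo1, 0.607 for Rspo2 and 0.833 for Rspo3 in the quasi-likelihood test of edgeR. Rspo3 shares 404 exon bases with the antisense gene Gm48159, and reads of the 2 cannot be told apart there without strand.

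**Figure D2:**
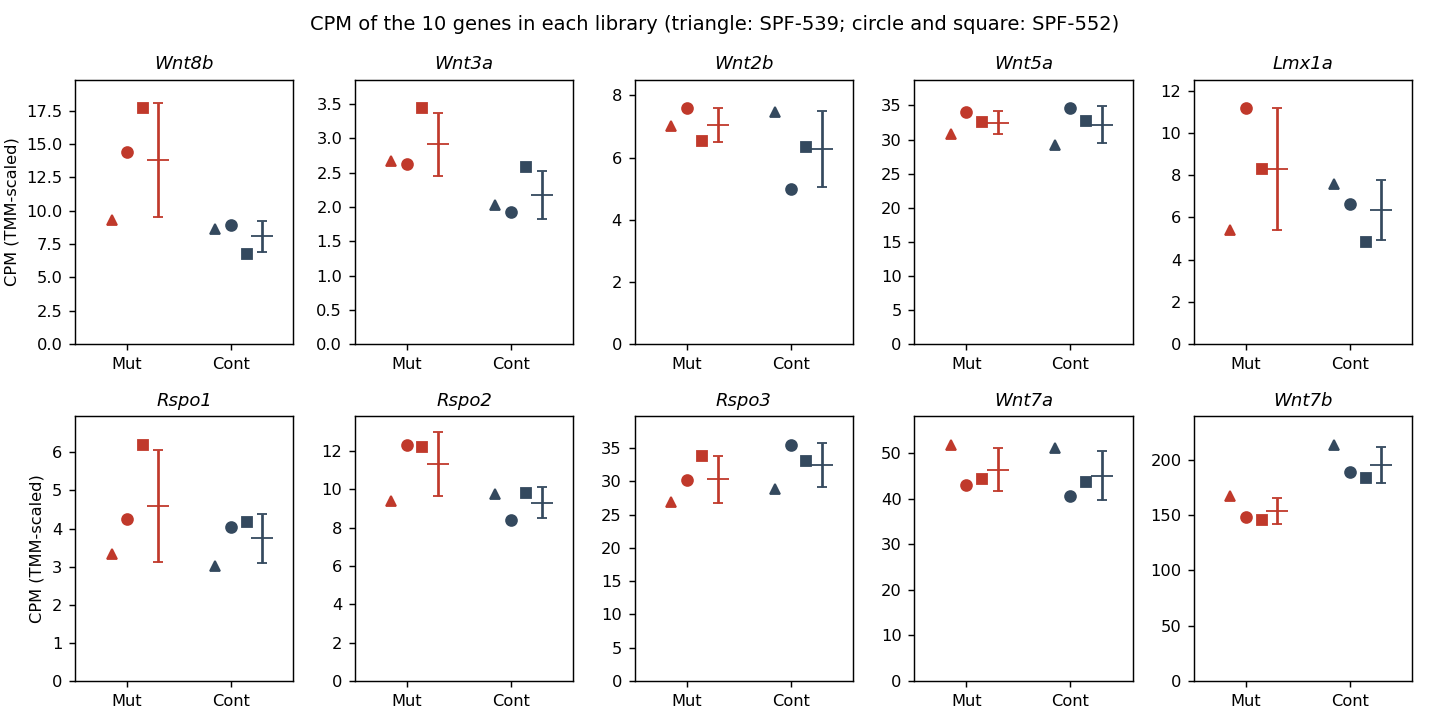
TMM-scaled CPM of each gene in each library (red, Mut; dark blue, Cont), with the mean and SD of each group (n = 3) to the right of its points; each panel has its own axis from 0. Wnt8b and Wnt3a lie higher and Wnt7b lower in all 3 Mut libraries than in all 3 Cont libraries, and the other 7 genes overlap.

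Wnt7b and Wnt7a were the comparison for the hem Wnts. Wnt7b (ENSMUSG00000022382, chromosome 15, 85535437 to 85582473, minus strand) measured 167.1, 148.0 and 145.3 CPM in Mut replicates 1 to 3, against 213.4, 188.6 and 183.6 CPM in Cont replicates 1 to 3. Every library labelled Mut was below every Cont library, and Mut replicate 1 and Cont replicate 1 were the highest of their groups. The fold was 0.786 (unadjusted 95% interval 0.688 to 0.898), the log2 fold change -0.35 with a standard error of 0.088, and the adjusted p 0.189 in the quasi-likelihood test of edgeR. The log2 ratio was -0.35 within SPF-539 and -0.34 within SPF-552. With the title number as a replicate block, Wnt7b was the 1 gene of the 10 that passed the same test (log2 fold change -0.35, standard error 0.065, adjusted p = 0.0341), as did 0.762% of all genes, 0.513% lower and 0.25% higher. In SPF-552 alone, where 3.7% of genes passed, both Wnt7b and Wnt8b did (adjusted p = 0.0018 and 0.00261 in the quasi-likelihood test of edgeR). Without Mut replicate 1 it passed too (adjusted p = 0.00866), while the 5 fits that left out another library gave adjusted p-values of 0.316 to 0.643.

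Wnt7a (ENSMUSG00000030093, chromosome 6, 91363981 to 91411363, minus strand) measured 51.9, 43.1 and 44.3 CPM in Mut replicates 1 to 3 and 51.1, 40.5 and 43.6 CPM in Cont replicates 1 to 3. Groups overlapped almost completely, and the SPF-539 library was the highest in each. The log2 fold change was 0.04 (standard error 0.11), and the 95% interval of the fold, 0.871 to 1.22, overlaps that of Wnt7b. The ratio of Wnt7b to Wnt7a CPM, which does not depend on the scaling between libraries, was 3.22, 3.44 and 3.28 in Mut replicates 1 to 3 and 4.18, 4.65 and 4.21 in Cont replicates 1 to 3. All Mut ratios were below all Cont ratios, with means of 3.31 ± 0.110 in Mut and 4.35 ± 0.265 in Cont (SD, n = 3 each).

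Reads of such close paralogues could be exchanged between them. In GENCODE M21 the coding sequences of Wnt7a (1047 bases) and Wnt7b (1068 bases) were identical at 77.8% of 1037 aligned bases. Their longest identical run was 23 bases, at coding positions 610 to 632 of Wnt7a and 631 to 653 of Wnt7b counted from the start codon, and is shown as the stretch in which the paralogues are hardest to tell apart.
Shared run of Wnt7a and Wnt7b: GGTGTGTCAGGCTCCTGTACCAC
Wnt7b also shares 324 exon bases with the antisense gene AU022754, whose reads an unstranded kit does not separate.

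**Figure D3:**
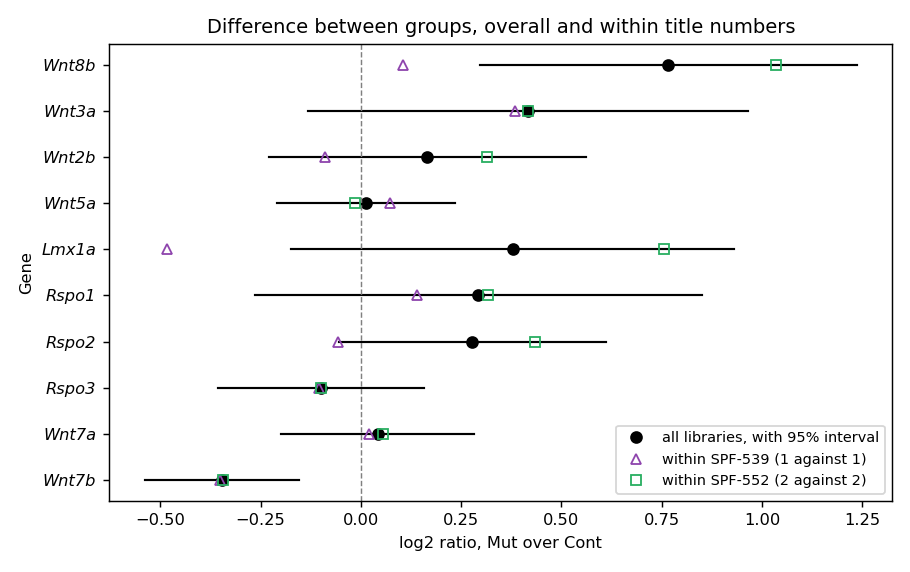
Log2 ratio of Mut to Cont for each gene over all libraries (black, with its unadjusted 95% interval), within SPF-539 (purple triangle, 1 library against 1) and within SPF-552 (green square, 2 against 2). The 3 values coincide for Wnt7b near -0.35, whereas for Wnt8b they run from 0.11 in SPF-539 to 1.03 in SPF-552 and for Lmx1a from -0.48 to 0.76.

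Set against the Wnt7 pair, the hem Wnts were relatively higher in the libraries labelled Mut. The mean log2 CPM of the 4 hem Wnts minus that of Wnt7a and Wnt7b was -3.43, -2.99 and -2.90 in Mut replicates 1 to 3 and -3.71, -3.54 and -3.51 in Cont replicates 1 to 3. Each Mut library was above all Cont libraries, with Mut replicate 1 close to Cont replicate 3. Group means were -3.10 ± 0.284 in Mut and -3.59 ± 0.109 in Cont (SD, n = 3 each). The mean fitted log2 fold change of the hem Wnts exceeded that of the Wnt7 pair by 0.49, which no test accompanies, since the genes were chosen with earlier results of these data known. Wnt8b and Wnt7b were the largest terms in it. There were 5.55, 9.74 and 12.2 CPM of Wnt8b for every 100 CPM of Wnt7b in Mut replicates 1 to 3, and 4.04, 4.72 and 3.68 in Cont replicates 1 to 3. Summed over the 4 hem Wnts the level was 49.7 to 60.3 CPM in Mut and 47.4 to 50.5 CPM in Cont, which overlapped, Wnt5a being the largest part of it.

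**Figure D4:**
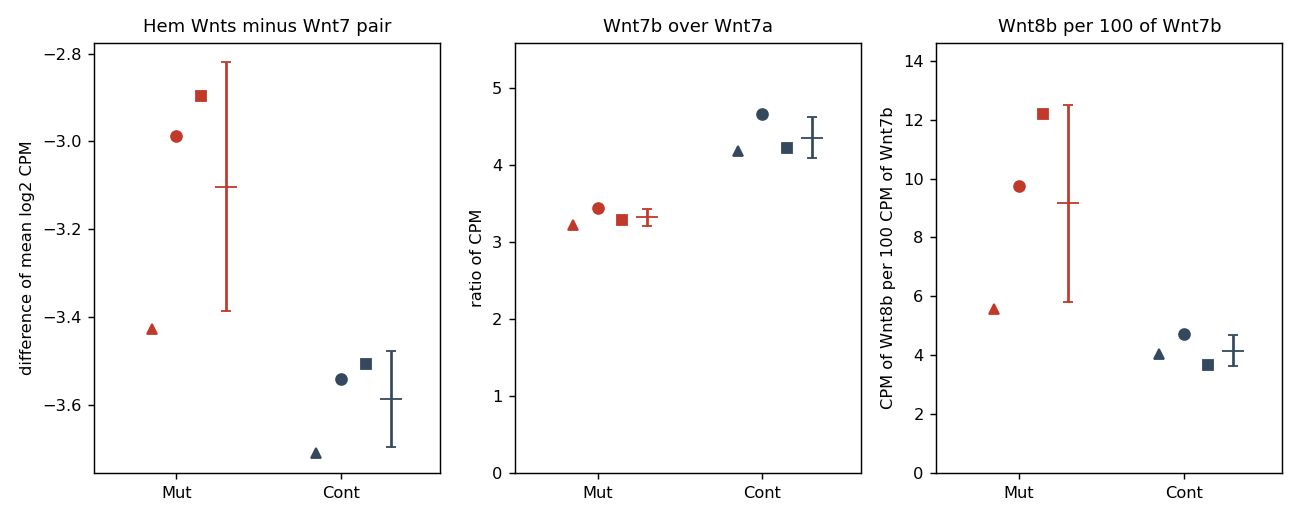
Per library, the mean log2 CPM of the 4 hem Wnts minus that of Wnt7a and Wnt7b (left), the ratio of Wnt7b to Wnt7a CPM (middle) and Wnt8b CPM per 100 CPM of Wnt7b (right), with group means and SD (n = 3). Mut libraries (red; triangle SPF-539, circle and square SPF-552) lie above Cont (dark blue) at left and right and below it in the middle, with Mut replicate 1 nearest to Cont at left and right.

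The authors' deposited table of the same 2 groups lists 369 genes, of which 2 are among the 10. The authors' deposited table gives Wnt8b a log2 fold change of 0.69 (FDR 0.0871) and Wnt7b one of -0.34 (FDR 0.0129). It lists genes up to an FDR of 0.0994, and its comparison shares all libraries with the one made here.

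The rest of the Wnt pathway was examined with 7 further lists, chosen by role. Of their 79 genes 70 were tested and none passed an adjusted p of 0.05 in the quasi-likelihood test of edgeR. Of the 70, 6 had an unadjusted p under 0.05, as did 9.6% of all genes. DESeq2 called 1 of the 70, Tcf7l2, and 1.41% of all genes it tested. The likelihood-ratio test of edgeR called none of them and 0.986% of all genes. The median log2 fold change of the 70 was 0.01 and that of all 15216 genes was -0.0003.

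Of the 14 other ligands listed, 7 (Rspo4 among them) had too few counts to be tested. The 7 tested had a median log2 fold change of -0.21, and the smallest p-values belonged to Wnt9b (-0.43) and Wnt4 (-0.21), with adjusted p-values of 0.773 and 0.801 in the quasi-likelihood test of edgeR. For secretion, Wls, the carrier of Wnts to the cell surface, had a log2 fold change of 0.10 and Porcn, which adds their lipid, -0.01.

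Of the 17 receptors and co-receptors 11 had a log2 fold change above 0 (median 0.10). Fzd10, a Frizzled of the dorsal midline and hem, had 16.0, 18.9 and 17.3 CPM in Mut replicates 1 to 3 and 14.3, 13.5 and 12.7 CPM in Cont replicates 1 to 3. These groups did not overlap, and the log2 fold change was 0.37 (standard error 0.12, adjusted p = 0.329 in the quasi-likelihood test of edgeR). The co-receptor gene Lrp5 had 32.0, 32.7 and 34.2 CPM in Mut replicates 1 to 3 and 38.7, 37.9 and 38.0 CPM in Cont replicates 1 to 3, a log2 fold change of -0.21 (standard error 0.088, adjusted p = 0.459). Lrp5 was lower in every Mut library than in any Cont library.

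The 5 R-spondin receptors and ligases had a median log2 fold change of 0.25. Znrf3, the ligase that R-spondins restrain and itself a beta-catenin target, had 35.96, 28.9 and 23.9 CPM in Mut replicates 1 to 3 and 22.9, 22.8 and 19.9 CPM in Cont replicates 1 to 3. All its Mut values were above all Cont values, with Mut replicate 1 highest, unlike Wnt8b, which was lowest there among Mut. Its log2 fold change was 0.44 (standard error 0.14, adjusted p = 0.33 in the quasi-likelihood test of edgeR), and the authors' deposited table gives 0.43 (FDR 0.048). Lgr4, the receptor with the next smallest p of this list, had a log2 fold change of 0.25.

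Secreted inhibitors had a median log2 fold change of -0.10 over 14 tested genes. Sfrp1, an abundant Wnt-binding protein of cortical progenitors, was at 197.6, 168.5 and 201.8 CPM in Mut replicates 1 to 3 and 164.6, 162.7 and 171.8 CPM in Cont replicates 1 to 3, and its groups overlapped (log2 fold change 0.19). Sostdc1, an antagonist of Wnts and BMPs, had a log2 fold change of -0.39. Among 20 intracellular members the median was 0.01. Tcf7l2, a TCF factor that is strongly expressed in the thalamus, had 281.3, 307.8 and 334.9 CPM in Mut replicates 1 to 3 and 253.5, 243.3 and 209.4 CPM in Cont replicates 1 to 3. Its log2 fold change was 0.39 (standard error 0.096, adjusted p = 0.173 in the quasi-likelihood test of edgeR), and the groups did not overlap. Without Mut replicate 1 it passed that test, and the authors' deposited table gives 0.39 (FDR 0.0461). The Groucho co-repressor Tle1 had a log2 fold change of 0.18.

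Feedback targets that report beta-catenin signalling had a median log2 fold change of 0.10 over 10 genes, 6 of them above 0. Axin2, the most general of them, measured 52.5, 55.5 and 56.2 CPM in Mut replicates 1 to 3 and 53.1, 47.0 and 49.6 CPM in Cont replicates 1 to 3, with overlapping groups and a log2 fold change of 0.13 (standard error 0.084). Axin2 is given as the usual reporter of the pathway and was chosen after its values were seen. Dkk1, a secreted inhibitor under beta-catenin control, was near the lower limit of detection at 0.32 to 0.39 CPM in Mut and 0.49 to 0.87 CPM in Cont (log2 fold change -0.88, standard error 0.46).

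Levels of markers of neighbouring regions and cell types are given beside these genes. The 16 tested of 18 diencephalon and midbrain markers summed to 464 to 581 CPM in Mut and 376 to 439 CPM in Cont. Of the 16, 15 had a log2 fold change above 0 (median 0.39), where 7591 of all 15216 genes did. None passed in the quasi-likelihood test of edgeR. An unadjusted p under 0.05 in that test was found for 7 of them and for 9.6% of all genes. DESeq2 called 2 (Tcf7l2 and Sim1), and 1.41% of the genes it tested. None of the 16 was at 0 in any library, and En1 and En2, with 12 and 21 counts over all 6 libraries, were not tested. Within this list Lmx1b, the paralogue of Lmx1a, had 2.62, 7.30 and 6.11 CPM in Mut replicates 1 to 3 and 4.29, 1.71 and 1.56 CPM in Cont replicates 1 to 3. Chosen here after its values were seen, it was like Lmx1a lower in Mut than in Cont in SPF-539 and higher in SPF-552. The log2 ratio of the summed list was 0.08 in SPF-539 and 0.52 in SPF-552, where Wnt8b had 0.11 and 1.03. Tcf7l2, also counted among the pathway genes above, made up most of that sum in every library, and its own log2 ratio was 0.15 in SPF-539, against 0.51 in SPF-552. The part of this tissue in the values of Wnt8b and Lmx1a was not tested.

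Cajal-Retzius cells are early neurons that arise in part from the hem. Their 10 markers summed to 569 to 718 CPM in Mut and 505 to 509 CPM in Cont. Reln was the largest part of this sum, and its groups overlapped. It had 460, 334 and 284 CPM in Mut replicates 1 to 3 and 265, 286 and 281 CPM in Cont replicates 1 to 3. Of the 10, 9 lay above 0 (median log2 fold change 0.32), and 6 had an unadjusted p under 0.05. None passed the quasi-likelihood test of edgeR, and 2 (Ebf2 and Ebf3) were called by DESeq2. Over all genes 7591 of 15216 lay above 0 and 9.6% had an unadjusted p under 0.05. DESeq2 called 1.41% of the genes it tested. The 11 ganglionic eminence markers all lay above 0 (median 0.25) and summed to 975 to 1123 CPM in Mut and 812 to 933 CPM in Cont, with 6 at an unadjusted p under 0.05 and none called by edgeR or DESeq2. The 8 genes listed as other hem markers, BMP ligands and their targets among them, did not share this direction, with 4 above 0 and 4 below. They summed to 158 to 160 CPM in Mut and 151 to 168 CPM in Cont, with a median log2 fold change of -0.03. Gli3 made up most of that sum in every library, at 94.2 to 95.4 CPM in Mut and 78.4 to 103 CPM in Cont. The sum thus says little of the other genes listed, and not every gene of this list is confined to the hem. Choroid plexus, the neighbour of the hem on its other side, had a median of -0.07 over 9 markers and sums of 360 to 413 CPM in Mut and 381 to 428 CPM in Cont. Meningeal and endothelial markers had medians of -0.01 and 0.03. No marker of these lists was at 0 in any library.

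**Figure D5:**
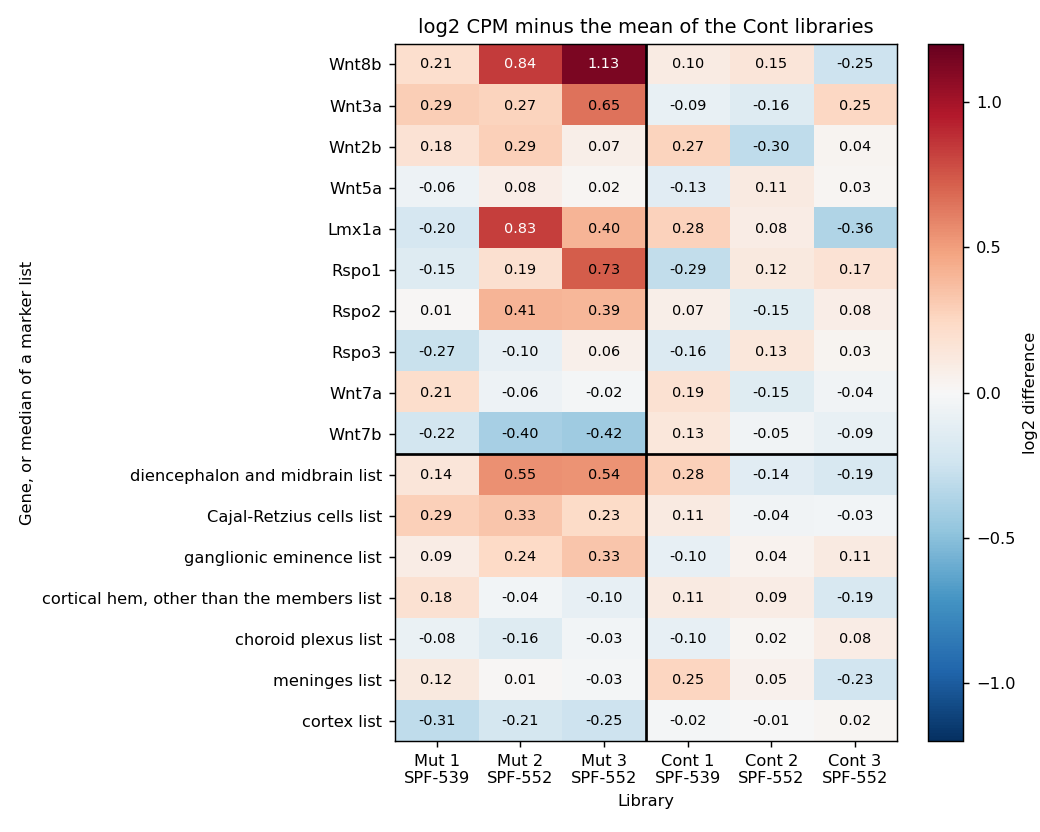
Log2 CPM minus the mean of the Cont libraries for the 10 genes (upper rows) and the median of the same measure over each marker list (lower rows), in 6 libraries; red is higher and blue lower. Wnt8b, Lmx1a, Rspo1, Rspo2 and the lists of diencephalon and midbrain and of ganglionic eminence are highest in Mut replicates 2 and 3. Wnt7b is below the Cont mean in all 3 Mut libraries.

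Genes with the pattern most like Wnt8b and Wnt7b were sought among 13835 other genes averaging 1 CPM or more, by the root mean square difference of centred log2 CPM over the 6 libraries. Shox2 was nearest to Wnt8b, at a difference of 0.124 where the pattern of Wnt8b itself has a size of 0.47 on this scale. It had 13.0, 19.5 and 24.1 CPM in Mut replicates 1 to 3 and 14.48, 12.8 and 11.1 CPM in Cont replicates 1 to 3. Gm48035 and Dnhd1 followed at 0.151 and 0.155. For Wnt7b the nearest were Rpl5, Kcnip1 and Scg5, at 0.0329, 0.0427 and 0.0453 against a size of 0.196. Nearest among so many genes, these similarities are descriptions only.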

How the data were processed

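Forebrain total RNA was made into TruSeq RNA v2 libraries, per the labels' protocols, a kit that marks no strand. The submitters' processing notes list, in no order, the mm10 (GRCm38) build, HTSeq 0.5.4p5, TopHat2 2.0.9 and edgeR 3.4.2. The deposited table holds estimated counts that the authors did not scale; 22.7% to 24.9% of values a library are not exactly whole, with the tool behind this not given in the sources used here. Per gene, the authors' deposited comparison holds a log2 fold change, a mean log2 CPM, a p-value with FDR and a likelihood-ratio score, from a model that no source used here states.

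Identifiers were matched without version to GENCODE M21 (99.39% matched). Counts were rounded and tested in R 4.3.3 with edgeR 4.0.16, after filterByExpr (count 10, total 15) and TMM scaling, by a robust quasi-likelihood fit of Mut against Cont over 6 libraries, with Benjamini-Hochberg adjustment and a threshold of 0.05. Standard errors are the log2 fold change over the root of the F statistic, and log2 CPM uses a prior count of 2. Exon length is the union of exons. Exact two-sided permutation p-values of single genes cannot go below 0.1 with 3 libraries against 3. Depth limits precision as given by counts a library, and the biological coefficient of variation was 12.3%. Replicates of a group differed beyond sampling noise (chi-square per gene 4.92 to 29.4). Within SPF-552 this value was 6.28 in Mut and 4.92 in Cont. For an SPF-539 library against an SPF-552 library it was 25 and 29.4 in Mut, and 12.5 and 16.5 in Cont. The main fit has no term for the title number. Replicates are numbered by accession and pair nothing; deviations of the 2 SPF-539 libraries from their group means correlated at 0.187 over genes. The series speaks of 3 mice a group; whether an RNA sample was pooled is not stated, and p-values measure the spread between libraries.

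The genes and lists were chosen with earlier results of these data known. Text names all 10 genes and, in each further pathway list, the 2 genes with the smallest p, as none was called. Of the marker lists it names genes called by a test, and Reln and Gli3 as the largest parts of their sums. Lmx1b and Axin2 were chosen after their values were seen. Some genes are not reported here. Alternatives were other scalings (RLE, upper quartile, totals), filters, DESeq2 1.42.0, the likelihood-ratio test, an FDR of 0.1, leaving out each library, SPF-552 by itself and a block for the title number. The scripts were tested on simulated data. Figures used matplotlib 3.10.9.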

Additional observations from a re-analysis of the deposited data

Results flagged for a closer look

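For 3 of the 10 genes the difference between groups had opposite directions in the 2 title numbers, with the SPF-539 library labelled Mut below its Cont library and both SPF-552 libraries labelled Mut above both of their Cont libraries. The log2 ratio of Lmx1a was 0.76 in SPF-552 and -0.48 in SPF-539, that of Rspo2 0.43 and -0.06, and that of Wnt2b 0.32 and -0.09. With 1 library a group in SPF-539, the difference between title numbers was not tested. An opposite direction of this kind, higher or lower, occurred in 20.8% of all genes tested.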

How the results depend on the processing

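None of the 10 genes passed in 12 of 16 alternatives. With DESeq2, in SPF-552 alone and without Mut replicate 1, 2 passed (Wnt8b and Wnt7b), with the title number as a replicate block 1 (Wnt7b), and leaving out single libraries gave 0 to 2. The count over all genes was 21, against 130 with no filter, 194 with DESeq2, 150 with the likelihood-ratio test, 56 at an FDR of 0.1, 116 with the replicate block, 564 in SPF-552 alone and 3 to 330 on leaving out 1 library; the cause was not tested. Wnt8b kept its direction in 15 of 15 alternatives (log2 fold change 0.55 to 1.04) and Wnt7b in 15 of 15 (-0.41 to -0.28). The difference of hem Wnts and the Wnt7 pair stayed positive in 18 of 18, from 0.38 without Mut replicate 3 to 0.65 without Mut replicate 1. Wnt5a changed sign with upper quartile factors (-0.000296), in SPF-552 alone (-0.0137) and without Mut replicate 2 or Cont replicate 1 (-0.0516 to 0.0678 over single libraries left out), and Wnt7a without Mut replicate 1 or Cont replicate 2 (-0.0468 to 0.143). Scaling moved the median of all genes to between -0.0136 and 0.00281. Depth limits Wnt3a most, at 44 to 76 counts a library.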
